A study of Mus musculus with 6 samples.

Results

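Promoter windows of protein-coding transcripts were examined in the DNA methylation lists of this series. The members were 306 windows of 500 bp, out of 2135 windows listed in at least 1 of the authors' 3 deposited tables. They were taken as every listed window whose nearest start site belongs to a RefSeq transcript with an NM_ accession, the prefix for curated protein-coding mRNAs, and lies at a distance from -2000 bp upstream to 500 bp downstream. They belonged to 193 genes on 20 chromosomes. Of these windows 219 were listed in 1 table, 86 in 2 and 1 in all 3.

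The study used reduced representation bisulfite sequencing (RRBS), which reads cytosine methylation in short fragments cut by the enzyme MspI, in 6 libraries. All cells were C57BL6 mouse bone marrow cells immortalised with HoxA9, a homeobox factor that keeps myeloid progenitors dividing, then transplanted into irradiated mice and sorted for GFP from bone marrow after 4 weeks. The IDH1wt group (2 libraries) carried the retroviral vector pSF91-IDH1wt-IRES-EGFP. The IDH1mut group (2 libraries) carried pSF91-IDH1mut-IRES-GFP, whose mutation is R132C by the name of the deposited table. The R-2HG group (2 libraries) carried the empty vector, and its mice were given 1 mg of R-2HG daily over 4 weeks. An empty vector group without R-2HG was not analysed here, so R-2HG cells differ from both other groups in vector and in treatment, which cannot be told apart. HoxA9 was present in every group, and nothing in the labels states whether the paired libraries stem from different mice.

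Most CpG sites of a mammalian genome are methylated, while promoters in CpG islands usually are not, and dense methylation of such a promoter goes with a silent gene. TET enzymes start the removal of the mark by oxidising it, with 2-oxoglutarate as their co-substrate. Mutant IDH1 makes R-2-hydroxyglutarate (R-2HG), which resembles 2-oxoglutarate and inhibits these enzymes, and IDH-mutant leukaemias are known for promoter hypermethylation. The comparisons ask which promoters differ with the mutant enzyme, with the metabolite, and between them.

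Every difference below is a value from the authors' deposited tables, in percentage points of methylation, between 2 groups of 2 libraries. The tables hold no level per library or group, no read depth, and only windows past a threshold: no promoter window had an absolute difference under 25 points, and the largest q among them was 0.009. No replicate error and no own test between groups can therefore be given, and a gene that is not listed is not thereby unchanged. A gain is a positive and a loss a negative listed difference, with the group named first minus the group it is set against. At the promoter window in all 3 tables these differences added up with a residual of 0, and at the 86 in 2 tables no remaining difference reached 25 points, which holds for no other order of signs. The tables do not state which group was subtracted, and the overall direction is an assumption, taken from the usual order of methylKit (treated minus control). Under the reverse reading of all 3 tables together, every gain is a loss and every higher value a lower one. In DNA of sorted cells, altered methylation in each cell and an altered mix of cells cannot be told apart.

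To show the kind of sequence that was measured, the 250 bases before the start site are given for 7 genes whose listed window covers the start site in 2 tables and for which RefSeq (GRCm38.p6) gives 1 start. They are 3 gains and 3 losses of IDH1mut against IDH1wt, those with the largest absolute difference in any table among those that met this, protocadherin genes left out, with Hoxa5 added as a gene of the HoxA cluster, which also holds Hoxa9. Capitals mark each CG, the dinucleotide whose methylation is read. The windows are in mm9 and were not placed on these coordinates, and the annotated start may differ between builds. The sequences are from chr17:88792015-88792264 (minus strand) for Lhcgr, chr6:116461179-116461428 (minus) for Alox5, chr3:99885167-99885416 (plus) for Spag17, chr6:52204588-52204837 (minus) for Hoxa5, chr13:86046796-86047045 (minus) for Cox7c, chr8:71908356-71908605 (plus) for Zfp882 and chr11:98329646-98329895 (minus) for Neurod2.
Lhcgr: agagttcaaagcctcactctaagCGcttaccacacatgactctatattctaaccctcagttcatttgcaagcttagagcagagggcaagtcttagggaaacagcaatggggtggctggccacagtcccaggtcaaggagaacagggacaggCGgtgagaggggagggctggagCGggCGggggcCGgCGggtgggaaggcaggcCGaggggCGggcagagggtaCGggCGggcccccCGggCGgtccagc
Alox5: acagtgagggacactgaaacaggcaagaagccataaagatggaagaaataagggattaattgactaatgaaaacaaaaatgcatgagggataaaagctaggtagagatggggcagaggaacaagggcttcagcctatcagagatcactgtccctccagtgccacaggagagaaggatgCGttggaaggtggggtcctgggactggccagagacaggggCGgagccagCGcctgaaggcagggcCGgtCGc
Spag17: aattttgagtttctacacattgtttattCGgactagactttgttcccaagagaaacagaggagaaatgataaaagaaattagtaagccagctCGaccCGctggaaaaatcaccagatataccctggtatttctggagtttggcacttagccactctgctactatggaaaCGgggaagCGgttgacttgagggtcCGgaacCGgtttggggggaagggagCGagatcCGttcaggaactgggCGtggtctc
Hoxa5: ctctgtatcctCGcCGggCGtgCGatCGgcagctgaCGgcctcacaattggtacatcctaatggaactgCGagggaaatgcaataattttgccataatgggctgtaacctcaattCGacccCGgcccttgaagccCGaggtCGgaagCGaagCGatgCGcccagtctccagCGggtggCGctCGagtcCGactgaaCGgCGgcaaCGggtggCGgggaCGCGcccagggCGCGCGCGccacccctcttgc
Cox7c: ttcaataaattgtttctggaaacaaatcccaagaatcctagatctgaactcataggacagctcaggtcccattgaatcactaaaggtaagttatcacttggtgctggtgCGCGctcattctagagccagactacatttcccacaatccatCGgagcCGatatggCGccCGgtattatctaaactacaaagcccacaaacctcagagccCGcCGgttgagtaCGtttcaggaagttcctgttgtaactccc
Zfp882: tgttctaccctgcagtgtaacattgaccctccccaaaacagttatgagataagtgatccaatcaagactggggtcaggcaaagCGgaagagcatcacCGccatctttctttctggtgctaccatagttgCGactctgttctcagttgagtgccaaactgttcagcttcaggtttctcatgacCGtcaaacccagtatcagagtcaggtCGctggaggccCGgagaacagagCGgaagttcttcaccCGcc
Neurod2: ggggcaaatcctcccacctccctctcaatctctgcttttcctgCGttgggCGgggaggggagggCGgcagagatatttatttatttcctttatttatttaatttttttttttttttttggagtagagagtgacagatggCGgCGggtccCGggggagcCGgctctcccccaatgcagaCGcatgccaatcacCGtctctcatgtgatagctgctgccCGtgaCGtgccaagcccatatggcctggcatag

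These 7 stretches held from 5 CG (Alox5) to 28 CG (Hoxa5), with 12 in Lhcgr, 11 in Neurod2, 10 in Spag17, 9 in Cox7c and 8 in Zfp882. The MspI site, CCGG, which reads the same on both strands and holds 1 CG, occurred 2 times in each but Alox5 and Zfp882, which held 1. Among 14731 protein-coding genes with 1 RefSeq start, the same 250 bases held a median of 9 CG (quartiles 2 and 18), and 53.8% held CCGG. Against this median the stretch of Alox5 was below, that of Cox7c equal and that of Lhcgr above, all within the quartiles. The stretch of Hoxa5 was above the upper quartile. Only 105 of the 193 genes (54.4%) had a single entry in the RefSeq promoter table, so a comparison of sequence content over the whole set is void.

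Against IDH1wt, IDH1mut cells carried 161 promoter gains and 57 promoter losses, 218 windows at 131 genes. The gains included Mab21l2, Ubb, Lhcgr, Lrrc4, Mansc1 and Alox5, and the losses Hccs, Zfp385b, Hoxc6, Necab1, Dcp1b and Cox7c. The gain share of 73.9% stood beside 69.3% for all 1493 listed windows of this comparison, a difference that was not tested. By gene, 93 carried gains alone and 38 losses alone, and none carried both. The median promoter gain was 30.8 points (quartiles 27.4 and 35.8) and the median loss -31.1, beside 30.6 and -28.9 over all listed windows. Neighbouring windows overlap and 15 of 83 overlapping pairs had an identical value, so windows are not independent measurements; joined within 1000 bp they formed 132 clusters, 93 of them gains.

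The largest promoter gain was at Mab21l2, a gene needed for development of the eye and other organs. For it the authors' deposited table listed gains of 69.6 points at 206 bp and 66.9 points at 456 bp downstream of the start (mm9 chromosome 3, 86351251 to 86352000). Further downstream, beyond the promoter span, 2 more windows had gains of 60.8 and 61.2 points. Its paralogue Mab21l1 was listed in the other direction, with -31.5 and -31.1 points at 71 and 321 bp and -34.2 and -32.4 points at -1682 and -1932 bp (chromosome 3, 55584001 to 55587250). Both paralogues are intronless developmental genes, and their promoters were listed in opposite directions for IDH1mut.

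Lhcgr, the receptor for luteinising hormone, gained 58.6 to 58.8 points in 3 windows over and beside its start (chromosome 17, 89190751 to 89191750). Ubb, 1 of the polyubiquitin genes, gained 67.4 and 65.5 points in 2 windows over its start (chromosome 11, 62364751 to 62365500); its reads may be shared with near-identical copies, so the value is uncertain. Alox5, which makes the first intermediates of leukotriene synthesis, had the same 51.0 points in 2 overlapping windows over its start, which is 1 measurement (chromosome 6, 116410751 to 116411500). Mansc1 gained 46.2 to 51.4 points in 3 windows over its start and up to 257 bp downstream. These promoters were covered across the start itself, and each gene's windows lay within a few points of one another.

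Lrrc4, a synaptic adhesion protein of the netrin-G ligand family, had the most promoter windows, 7 gains from -1755 to -5 bp (chromosome 6, 28781751 to 28784000). Their sizes fell into separate levels in the authors' deposited table. The 2 overlapping windows at -1755 and -1505 bp had the same 58.4 points and are not independent. The 5 windows from -1005 to -5 bp, which also overlap, had 26.6 to 29.97 points. The methylation difference was thus largest far from the start, and nearer to it lay close to the 25-point threshold.

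The adhesion and matrix group held 12 genes with a promoter window for IDH1mut, 11 of them gains, with a median of 31.3 points over 28 windows. Among them, Mmp23, a membrane-bound matrix metalloproteinase, had 4 overlapping gains upstream of its start that held only the values 35.8 and 47.4 points. Mmp14, the collagenase MT1-MMP, gained 30.4 points at 62 bp. The semaphorin genes Sema4b and Sema4f, which encode guidance cues, gained 34.9 to 39.7 points in 4 windows and 30.8 to 31.3 points in 3. The clustered protocadherin genes Pcdhb3, Pcdhga8, Pcdhga9 and Pcdhgb7, neuronal adhesion molecules with 1 promoter per first exon, gained 30.9, 49.1, up to 41.9 and 30.8 points. The group was formed by symbol pattern and also took in Krtap17-1, a hair protein gene and its single loss, and Lrrc43, which are not adhesion genes. Of the 29 genes of this group with a listed window at any distance 12 had one in a promoter, beside 131 of 881 over all genes. By gene the gains were 11 of 12, beside 93 of 131 over all genes. By window they were 27 of 28, beside 73.9%. Whether this group differs from these shares was not tested.

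Of 21 homeobox genes with a listed window for IDH1mut, 5 had one in a promoter. Hoxa4, Hoxa5 and Hoxb3, which give positional identity and are active in early blood progenitors, were gains, and Hoxc5 and Hoxc6 were losses. Hoxa5 gained 30.8, 31.5 and 32.3 points at 0, 87 and 337 bp (chromosome 6, 52153751 to 52154750), with a further gain of 35.5 points at 587 bp. Hoxa4 gained 31.4 points at 453 bp. Hoxb3 gained 36.5 and 36.1 points at -1333 and -1583 bp. Hoxc6 had the same -46.5 points in 2 windows at its start, and Hoxc5 had -32.5 and -30.4 points at -1689 and -1439 bp (chromosome 15, 102839751 to 102843000 for both). Within the authors' deposited table the listed HoxA and HoxB promoters were thus gains and the HoxC promoters losses, a split that rests on 5 genes. Hoxc6 and Hoxc5 are not independent, as further Hoxc6 losses reached 1760 bp downstream, next to the Hoxc5 windows. Over all genes, 131 of the 881 with a listed window for IDH1mut had one in a promoter, and 93 of these 131 were gains. Whether the homeobox genes differ from these shares was not tested.

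Of 6 other developmental regulators with a promoter window for IDH1mut, 2 were gains and 4 were losses. Hand1, a heart and placenta factor, gained 26.2 points. Neurod2, a neuronal factor, had -30.1 points over its start, Sox7, an endothelial and early blood factor, -29.1 points at -1293 bp, and Tbx1, the T-box gene of pharyngeal development, -25.7 and -25.2 points. Of 6 zinc finger genes 3 were gains (Zfp61, Zfp112 and Zfp583) and 3 were losses (Zfp385b, Zfp90 and Zfp882). Over all genes with a promoter window 93 of 131 were gains, and neither group was tested against that.

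The largest promoter loss was at Hccs, the enzyme that attaches haem to cytochrome c. The authors' deposited table gave it -55.6 points at -227 bp with q = 8.8e-05, in 1 window on the X chromosome. Zfp385b had -51.6 points at -629 bp, and Necab1, a neuronal calcium-binding protein, the same -42.4 points in 2 windows. Cox7c, a subunit of cytochrome c oxidase, had -40.1, -38.3 and -26.8 points in 3 windows from 151 bp downstream across its start (chromosome 13, 86185751 to 86186750). Dcp1b, a cofactor of mRNA decapping, had -41.0 points at -21 bp. Of these losses, that of Cox7c alone spanned 3 windows.

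Imprinted genes are controlled by methylation of 1 parental copy, at the promoter or elsewhere, so some of their promoters can be at intermediate levels. Of 32 imprinted genes in the list 3 had a listed window for IDH1mut at any distance, and the same 3 had one in a promoter, 1 gain and 2 losses. Over all genes 131 of the 881 with a listed window had one in a promoter, and 93 of these 131 were gains. Whether the imprinted genes differ from that was not tested. Cdkn1c, an inhibitor of cyclin-dependent kinases, had -36.5 and -37.0 points at 0 and -47 bp (chromosome 7, 150646751 to 150647500). Igf2, a fetal growth factor, had -32.9 and -33.7 points at 0 and 137 bp (chromosome 7, 149842751 to 149843500). Nnat, a small membrane protein of neurons, gained 29.5 points at 157 bp.

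Of 37 genes of DNA methylation and 2-oxoglutarate-dependent enzymes, Dnmt3a alone had a promoter window. This de novo DNA methyltransferase gained 25.8 points over the start of the transcript NM_153743 in the authors' deposited table (chromosome 12, 3891501 to 3892000). Of 59 Wnt, Notch and hedgehog genes, Notch3, a Notch receptor, had a promoter window, a gain of 27.2 points at 48 bp, and 7 of the 59, Notch3 included, had a listed window at any distance. Of 48 blood stem cell and myeloid regulators 9 had a listed window for IDH1mut, and of 35 growth suppressors often methylated in cancer 5 had one, in each case outside promoters. Over all genes, 131 of the 881 with a listed window had one in a promoter, and whether these lists differ from that was not tested. The lists do not hold every gene of a class. Cdkn1c was counted with the imprinted genes alone. Rspo1, named after its values were seen, had 2 promoter gains of 28.4 points for IDH1mut and was in no list.

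Of the other promoters with several windows, those named here were all gains. Sult2b1, a sulfotransferase of cholesterol and other sterols, gained 42.5 to 44.6 points in 3 windows. Trip6 and Sorbs3, adaptor proteins of focal adhesions, gained 26.9 to 33.8 and 26.1 to 38.5 points in 3 windows each. Rac3, a small GTPase, had 3 windows between -282 and 471 bp with gains of 26.8 to 34.4 points, and the transcript 2610524H06Rik 25.5 to 27.5 points in 3.

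**Figure D1:**
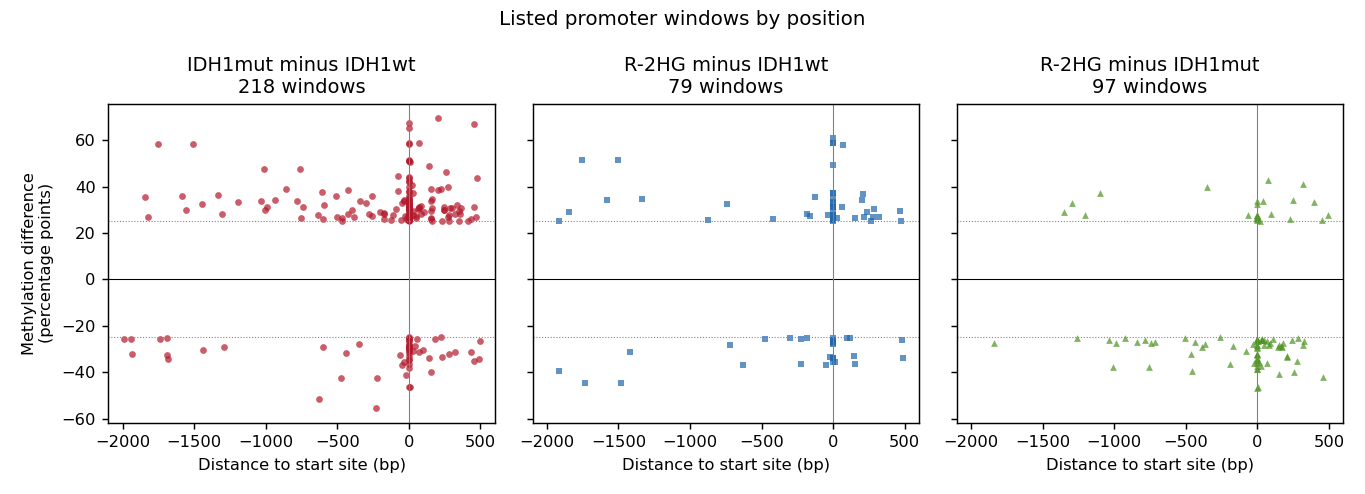
Methylation difference in percentage points (vertical axis) against distance to the nearest start site in bp (horizontal axis) for each listed promoter window, with 1 panel per comparison and dotted lines at 25 points, under which nothing is listed. Of the 218 IDH1mut windows 161 lie above 0, of the 79 R-2HG windows 50, and of the 97 windows of R-2HG against IDH1mut 26.

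The plot by position shows where the windows lay. Of the 306 windows 108 (35.3%) covered the start site, 98 (32.0%) lay 1 to 500 bp downstream, 47 (15.4%) within 500 bp upstream and 53 (17.3%) farther upstream. RRBS covers CpG-rich sequence most densely and the windows tested are unknown, so these shares do not say where changes were more frequent. In IDH1mut against IDH1wt the gain share was 74.4% over the start (58 of 78), 74.2% downstream (49 of 66), 75.7% just upstream (28 of 37) and 70.3% farther upstream (26 of 37). For R-2HG against IDH1wt it was 71.9% over the start (23 of 32), 66.7% downstream (14 of 21), 41.7% just upstream (5 of 12) and 57.1% farther upstream (8 of 14). The last 2 shares rest on few windows, some of them overlapping, and were not tested.

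**Figure D2:**
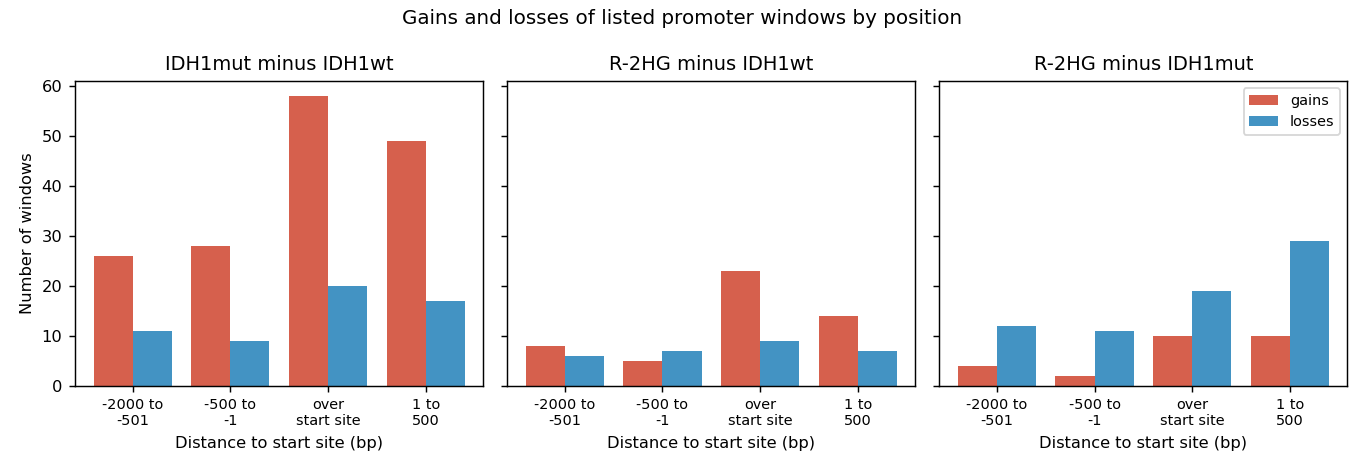
Number of listed promoter windows (vertical axis) by distance to the start site (horizontal axis, in bp), with red bars for gains and blue bars for losses, for each comparison. Gains outnumber losses at every position for IDH1mut against IDH1wt, from 58 to 20 over the start site, and losses outnumber gains at every position for R-2HG against IDH1mut, from 19 to 10 over the start site.

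The windows nearest to the edges of the span had these values in the authors' deposited tables. Just inside it, Zfp90 at -1989 bp and Tbx1 at -1940 bp were listed with -25.5 and -25.7 points for IDH1mut, and Acd at 496 bp with -26.7 points, while Egf at 491 bp had -34.5 points for IDH1mut and -34.0 for R-2HG against IDH1wt. Just outside it, Grik3 at -2075 bp had 26.7 points and Mos at 503 bp 32.6 points for IDH1mut, Nol7 at 508 bp had 50 points for R-2HG against IDH1wt, and Dtx1 at -2074 bp had 27.9 points for R-2HG against IDH1mut.

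Against IDH1wt, R-2HG cells carried 50 promoter gains and 29 promoter losses, 79 windows at 56 genes. The gains included Ubb, Lhcgr, Lrrc4, Alox5, Mab21l2 and Hoxa6, and the losses 1700024P04Rik, Racgap1, Zfp385b, Cdkn1c, Hccs and Cox7c. The gain share of 63.3% stood beside 68.0% for all 750 listed windows, a difference that was not tested. The median promoter gain was 29.1 points and the median loss -31.3, beside 29.4 and -28.6 over all listed windows. Joined within 1000 bp the windows formed 56 clusters, 33 of them gains. This comparison shares its IDH1wt libraries with the one before, so like values in both are not independent, and each comparison's own values are set side by side.

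At several promoters the R-2HG value stood close to the IDH1mut value. Lhcgr gained 58.0, 58.8 and 58.9 points for R-2HG in the authors' deposited table, in the windows that gained 58.8, 58.7 and 58.6 points for IDH1mut. Cdkn1c had -33.8 and -36.7 points for R-2HG in the windows with -36.5 and -37.0 for IDH1mut. Hoxb3 gained 34.5 and 34.2 points beside 36.5 and 36.1. Egf, a growth factor gene named after its values were seen, had -34.0 beside -34.5 points at 491 bp. Cox7c had -36.5 and -33.9 points beside -40.1 and -38.3.

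At others the R-2HG value was the smaller one. Mab21l2 gained 36.7 points at 206 bp for R-2HG and 69.6 for IDH1mut, and the direct table gave -32.8 points between them. Alox5 gained 37.2 points beside 51.0, and Hoxc6 had -35.5 beside -46.5 points. Zfp385b had -37.0 beside -51.6 points and Hccs -36.5 beside -55.6, the latter with q = 0.009 for R-2HG. At Ubb the 2 windows gained 49.5 and 61.2 points beside 67.4 and 65.5, and at Lrrc4 the upstream windows gained 51.5 beside 58.4 points. For the 38 promoter windows listed against IDH1wt in both tables but not in the direct one, subtraction gave R-2HG minus IDH1mut values from -17.9 points (Ubb) to 19.05 points (Hccs), with a median of -0.79. A smaller R-2HG change gives a negative value at a gain and a positive one at a loss, so this median pools opposite signs. At each of these windows outside Lhcgr the R-2HG difference was the smaller in size, which was not tested.

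Several promoters were listed for R-2HG and not for IDH1mut, which does not show that the groups differ there. Hoxa6, which neighbours Hoxa5, was listed by the authors' deposited table with gains of 35.2 points at 0 bp and 35.5 points at -129 bp (chromosome 6, 52158501 to 52159250). Evx1, the homeobox gene at the end of the HoxA cluster, gained 32.5 points at -742 bp. Of 17 homeobox genes with a listed window for R-2HG, 5 had one in a promoter, 4 of them gains, with Hoxc6 the loss. Over all genes, 56 of the 452 with a listed window for R-2HG had one in a promoter, and 33 of these 56 were gains. Whether the homeobox genes differ from these shares was not tested. Fah, the last enzyme of tyrosine breakdown, gained 27.8 to 34.1 points in 3 windows across its start. The transcript 1700024P04Rik had the largest promoter loss, the same -44.6 points in 2 windows upstream, and Racgap1, a regulator of cytokinesis, -39.5 points at -1915 bp. Dusp4, a phosphatase of MAP kinases, gained 25.1 points at -1914 bp, and 2 windows just beyond the span gained 25.6 points each. Of 3 growth suppressors of the list with a listed window for R-2HG, Dusp4 alone had one in a promoter. Over all genes 56 of 452 had one, and a difference from that was not tested.

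A few promoters outside the lists concern genes known from leukaemia or from lipid mediators; they were picked once their values were known. Mn1, a transcriptional cofactor overexpressed in some myeloid leukaemias, gained 26.8 points at 317 bp for R-2HG, and 3 windows farther downstream gained 29.4 to 39.1 points. Ltb4r2, a receptor for leukotriene B4, gained 28.99 points at 238 bp. The glutathione peroxidase genes Gpx7 and Gpx3, which reduce peroxides, were listed with 33.0 and -33.0 points, in opposite directions.

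**Figure D3:**
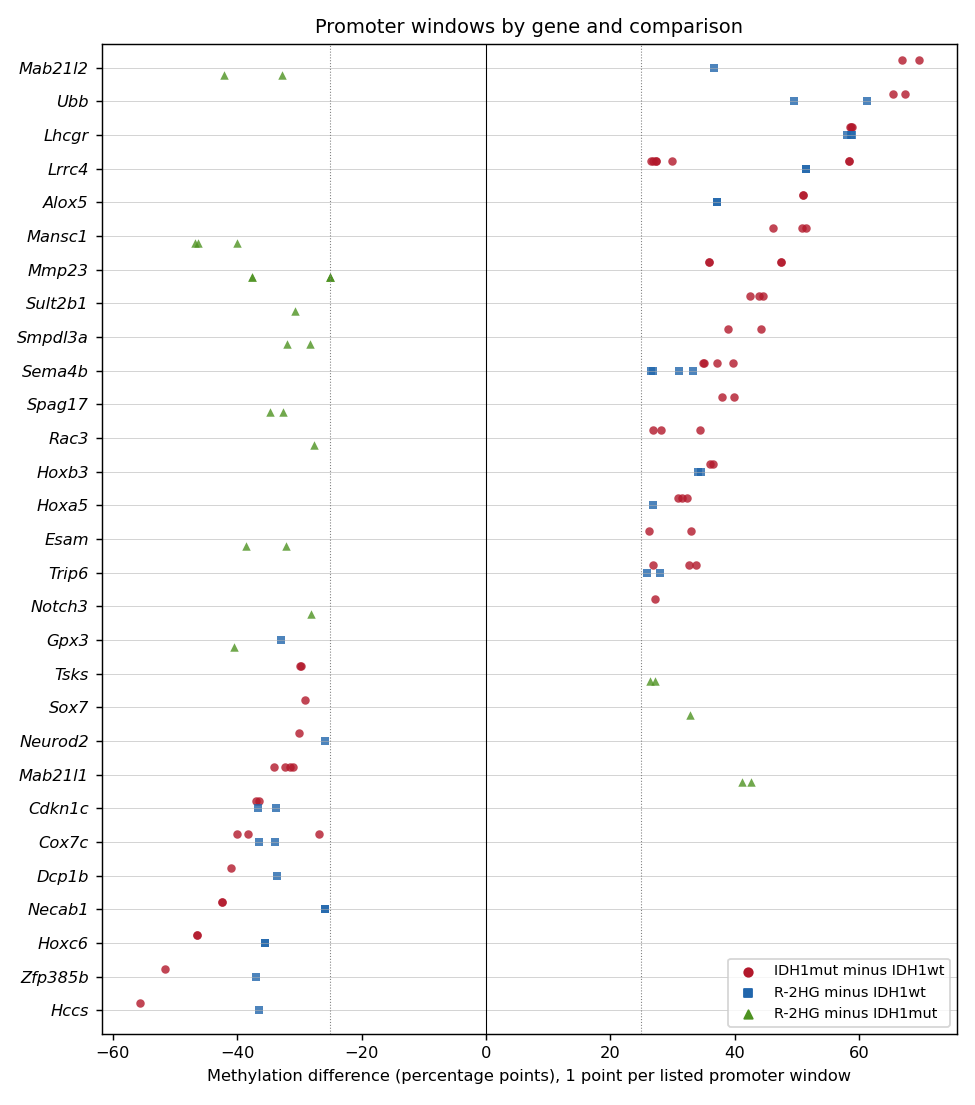
Methylation difference in percentage points (horizontal axis) for the listed promoter windows of selected genes (vertical axis), with 1 point per window; red circles are IDH1mut minus IDH1wt, blue squares R-2HG minus IDH1wt and green triangles R-2HG minus IDH1mut, and dotted lines mark 25 points. Lhcgr, Hoxb3 and Cdkn1c have red and blue points side by side, while Mansc1, Mmp23 and Esam have red gains and green losses, and Mab21l1 the reverse.

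Set directly against IDH1mut, R-2HG cells carried 26 promoter gains and 71 promoter losses, 97 windows at 64 genes. Methylation was lower in R-2HG at Mansc1, Mab21l2, Gpx3, Sowahb, 6430531B16Rik and Esam, and higher at Mab21l1, Tmcc3, Hcfc1, Zfp882, Gfra3 and Tagln3. The gain share of 26.8% stood beside 35.5% for all 603 listed windows, a difference that was not tested. The median promoter gain was 28.0 points and the median loss -28.4, beside 29.0 and -29.2 over all listed windows. Joined within 1000 bp they formed 64 clusters, 18 of them gains. This comparison shares libraries with both others and does not by itself say which group moved.

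For 47 promoter windows the direct table and the table of IDH1mut against IDH1wt both held a value, and subtraction gave R-2HG minus IDH1wt as -9.6 to 24.7 points, with a median of 4.6. These windows were therefore those where IDH1mut differed from both other groups, by the form of the 3 differences. Mansc1 had -40.0, -46.2 and -46.8 points for R-2HG against IDH1mut in the authors' deposited table, in the windows that gained 46.2, 50.9 and 51.4 points for IDH1mut against IDH1wt. Mmp23 had 5 losses of -25.02 to -37.6 points, and Esam, an adhesion molecule of endothelium and blood stem cells, -38.6 and -32.2 points in windows where IDH1mut had gained 33.0 and 26.2. Spag17, a protein of the ciliary axoneme named after its values were seen, had -34.7 and -32.6 points beside gains of 39.9 and 37.9.

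The reverse form was seen where IDH1mut had lost methylation. Mab21l1 was higher in R-2HG by 42.7 and 41.1 points at 71 and 321 bp, where IDH1mut had -31.5 and -31.1. Sox7 was higher by 32.8 points and Tmcc3 by 39.8 points, where IDH1mut had -29.1 and -28.0. Zfp882 was higher by 32.4 to 34.3 points in 3 windows, and Tsks, a testis kinase substrate named after its values were seen, by 26.4 and 27.2 points where IDH1mut had -29.7 and -30.0. At Gpx3, the secreted glutathione peroxidase, R-2HG had -40.6 points against IDH1mut and -33.0 against IDH1wt, and subtraction gave IDH1mut against IDH1wt 7.6 points. It was the 1 promoter window where R-2HG was listed as different from both other groups without IDH1mut being listed against IDH1wt.

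Members of the lists and other regulators also had promoter windows in the direct comparison. At Dnmt3a the direct table listed -35.8 points at 9 bp (chromosome 12, 3891751 to 3892250), a window that overlaps the one with a gain of 25.8 points for IDH1mut. Notch3 had -28.1 points at 48 bp, in the window with a gain of 27.2 points for IDH1mut, and 26.5 points in another window 22798 bp downstream. Hoxc10 had -26.2 points at 26 bp. Of 6 homeobox genes with a listed window in this comparison, Hoxc10 alone had one in a promoter. Over all genes 64 of 369 had one, and a difference from that was not tested. Runx1t1, a corepressor that is fused to RUNX1 in a form of acute myeloid leukaemia, was higher in R-2HG by 27.7 points over its start and was named after its value was seen. Hcfc1, a cofactor of chromatin regulators on the X chromosome, was higher by 37.3 and 29.1 points upstream of its start.

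Promoter differences mostly stood alone within their gene. Of 131 genes with a promoter window for IDH1mut, 9 had listed windows outside the promoter that the authors' deposited table gave to the same gene as the nearest, and in 7 of them all these windows had the direction of the promoter. At Adamts5, a matrix protease, the promoter gained 28.0 points at -632 bp while 2 overlapping windows at -8632 and -8382 bp had the same -27.97 points. Grik3 had further windows in both directions. At Hoxc6 6 further windows were losses of -29.9 to -58.1 points. For R-2HG against IDH1wt 7 of 56 genes had other windows, all in the promoter's direction, and for R-2HG against IDH1mut 5 of 64, with 1 exception, Notch3. Genes with no other listed window may have none that passed the threshold or none that was covered.

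**Figure D4:**
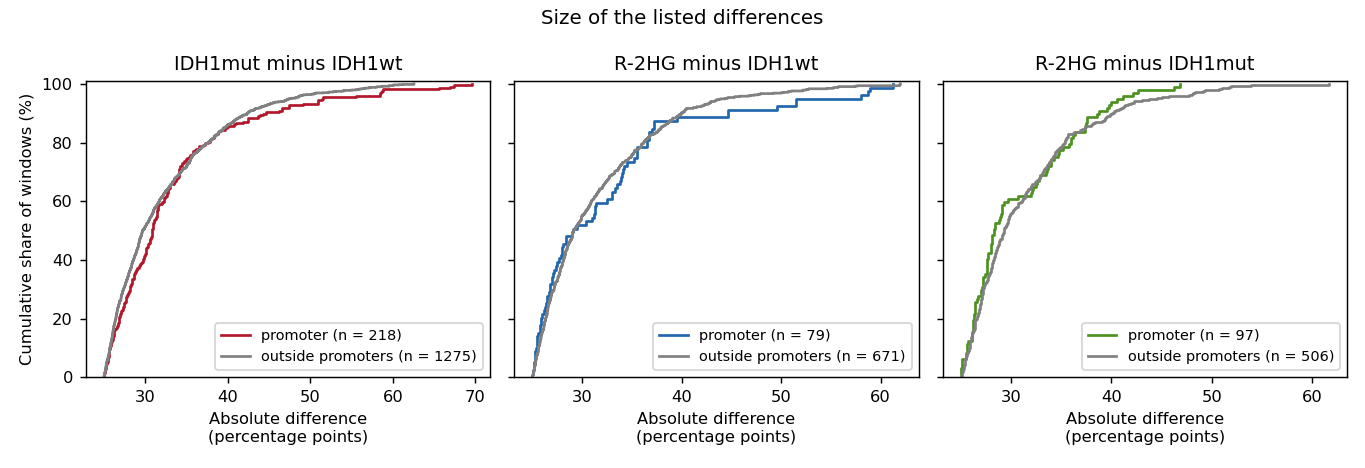
Cumulative share of listed windows in percent (vertical axis) by absolute methylation difference in percentage points (horizontal axis), for promoter windows (coloured) and all other listed windows (grey) of each comparison. The curves start at the 25-point threshold and run close together; medians are 30.9 and 29.7 points for IDH1mut against IDH1wt, 29.1 and 29.2 for R-2HG against IDH1wt, and 28.3 and 29.3 for R-2HG against IDH1mut.

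In size, promoter windows stood near the rest of the list, as the plot of cumulative shares shows. Absolute differences of 40 points or more were found for 32 of 218 promoter windows (14.7%) in IDH1mut, 9 of 79 (11.4%) in R-2HG and 6 of 97 (6.2%) in the direct comparison. The same shares among windows outside promoters were 14.04%, 9.84% and 10.3%. The authors' p-value was deposited as 0 for 83.0%, 75.9% and 87.6% of promoter windows, beside 68.9%, 67.8% and 80.8% of windows outside promoters. The read coverage behind these p-values is unknown, and whether it differs between promoters and other windows was not tested. Promoter windows made up 14.6% of all listed windows for IDH1mut, 10.53% for R-2HG and 16.1% for the direct comparison.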

How the data were processed

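RRBS was done on GFP-sorted mouse bone marrow cells, in 6 libraries of 3 groups. The submitters' processing notes name Trim Galore, BSMAP, methylKit 0.9.1 and the build mm9, and no source used here gives the settings, coverage filter or test. Per the file headers, the authors deposited for each listed window a p-value and q-value, a methylation difference, which is a signed score in percentage points, and the signed distance score to the nearest start site in bp. Depth is unknown, so no interval for a methylation level is given.

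From these tables, 1 entry per chromosome and start was kept and promoter windows were taken from -2000 to 500 bp of NM_ start sites. The sign of the table of IDH1wt with R-2HG was turned. Counts, medians and subtractions were made with pandas 2.3.3 in Python 3.11.15, and the sign order, joining and filter were tested on simulated data. RefSeq promoters (GRCm38.p6) were matched by accession for 190 of 193 genes and by symbol for the others. Not every gene had an entry there. No test between groups was possible without values per library.

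The members and the 17 gene lists (5 by name, 12 by symbol pattern) were chosen with earlier results of these data known. Named genes were, per comparison, the 6 largest gains and losses, those with 3 or more windows and up to 15 members of the name lists, and those in 3 tables or the 10 largest in 2; others are marked as chosen after their values were seen or serve as examples of a group, of the edges of the span or of sequence. Of the 48 blood stem cell and myeloid regulators 9, 5 and 4 had a listed window in the 3 comparisons and 0 a promoter window, where 131 of 881, 56 of 452 and 64 of 369 listed genes had one; this was not tested. The alternatives tried were other promoter spans, a larger minimum difference, joined windows, and leaving out windows tied between transcripts.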

Additional observations from a re-analysis of the deposited data

How the results depend on the processing

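Shares of gains moved little with the processing: they ran from 70.5% to 75.5% for IDH1mut against IDH1wt, from 58.9% to 63.8% for R-2HG against IDH1wt and from 24.7% to 28.1% for R-2HG against IDH1mut over the 5 alternatives and the span used. Counts of promoter windows moved by over 1.5 times where the alternative keeps or counts fewer windows by its construction. With a minimum of 30 points the counts were 126, 38 and 38 for the 3 comparisons in the same order. Joined into clusters they were 132 for IDH1mut against IDH1wt and 64 for R-2HG against IDH1mut. With the span ended at the start site, from -2000 to 0 bp, 58 windows were left for R-2HG against IDH1mut. No promoter window was equally near to another transcript. No paired analysis was possible because the tables hold comparisons between groups and no value per library, and for the same reason no library could be left out in turn. The coverage behind each window is unknown, and all values rest on 2 libraries a group.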
